A study of Mus musculus with 40 samples.

Results

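The genes described here are the fibrillar, network-forming and other collagens on an expression array run on mouse lung. They were taken as every platform gene symbol made of Col, a number, the letter a and a number, and each gene was read from the probe set with the highest mean level over the 40 arrays. This gave 36 collagen genes of 12393 genes in all, and 19 of the 36 were also covered by at least 1 dimmer probe set. The series, titled as a study of murine airway hyperresponsiveness, holds 40 arrays of total RNA from mouse lung in 8 groups of 5. The groups cross 2 strains (AJ, which the labels call hyperresponsive, and C3H, whose substrain is not given in the sources used here) with allergen or PBS vehicle, both given by aspiration, and with 6 h or 24 h after it. The titles write OVA for the allergen and the descriptions write HDM, so it is called allergen here. The descriptions name the AJ strain for all 40 arrays, while the titles of 20 carry C3H, and the titles were followed for strain. The labels number the arrays of a group without saying whether they came from separate mice, so each p-value measures how far these samples spread, which may be technical. Age, sex and any sensitisation before the aspiration are not given in the sources used here.

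Collagens are trimeric proteins of the extracellular matrix wound from alpha chains, each chain being the product of its own gene. Fibrillar chains (types I, II, III, V and XI) build the tensile fibrils of the lung's airway walls, vessels and septa. Type IV chains build the sheet of the basement membrane under epithelium and endothelium, and type VI chains build the beaded filaments that lie between cells and fibrils. Chains are hydroxylated and folded in the endoplasmic reticulum, trimmed and crosslinked outside the cell, and broken down by metalloproteinases and cathepsins.

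Levels are given as log2 of the deposited intensity plus 16, and differences are on that scale, which understates the change of dim genes. Brightness depends on the probe as well as on the transcript, so no gene's level is set against another's. Each adjusted p is from limma, with Benjamini-Hochberg adjustment over all 12393 genes, and a gene passed where it was under 0.05. Every array had been scaled to nearly the same trimmed mean intensity, between 150.036 and 150.046, the array medians ran from 63.7 to 81.3, and pairs of arrays correlated at 0.875 to 0.985. The mean of 10 alveolar epithelial markers was between 10.76 and 11.15 in every group, as a check on the labelled tissue. The number of arrays, 5 in a group, limits the precision. In whole lung, fewer cells of a type and less RNA per cell cannot be told apart.

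Of the 36 collagens, 7 passed in at least 1 of the 4 comparisons of allergen with PBS, 10 passed in at least 1 of 12 comparisons, and 26 in none. The matching shares over all genes are not given here, so these counts are not read as particular to collagens. In AJ lungs at 24 h, 5 collagens rose and the other 31 did not pass. These 5 were Col3a1, Col5a2, Col6a1, Col6a2 and Col8a1. The members' share of 13.9% compares with 7.84% of all genes called in either direction, and with 4.56% of all genes called higher. At 6 h in AJ lungs 2 rose (Col3a1 and Col6a2) and 2 fell (Col4a3 and Col4a5), a share of 11.1% beside 19% of all genes called. In C3H lungs at 24 h, Col6a1 and Col6a2 rose and Col4a5 fell, a share of 8.33% against 3.24% of all genes. In C3H lungs at 6 h the limma fit called 0 of 36, against 7.62% of all genes called. At an unadjusted p under 0.05 were 4 members, all of them lower. The share of all genes at an unadjusted p is not given here, for this or for later such counts. Single arrays moved these counts: the 4 of AJ at 6 h became 2 without AJ allergen replicate 4 or AJ PBS replicate 1 or 2, and 1 without AJ PBS replicate 5. The 3 of C3H at 24 h became 1 without C3H PBS replicate 1, 2, 3 or 4 and 0 without C3H allergen replicate 2, and the 0 of C3H at 6 h became 1 without C3H PBS replicate 2 or 3. The median difference of the 36 was -0.05 in AJ at 6 h, 0.02 in AJ at 24 h, -0.06 in C3H at 6 h and -0.07 in C3H at 24 h. The medians over all genes were -0.07, -0.00, -0.00 and -0.04 in the same order.

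**Figure D1:**
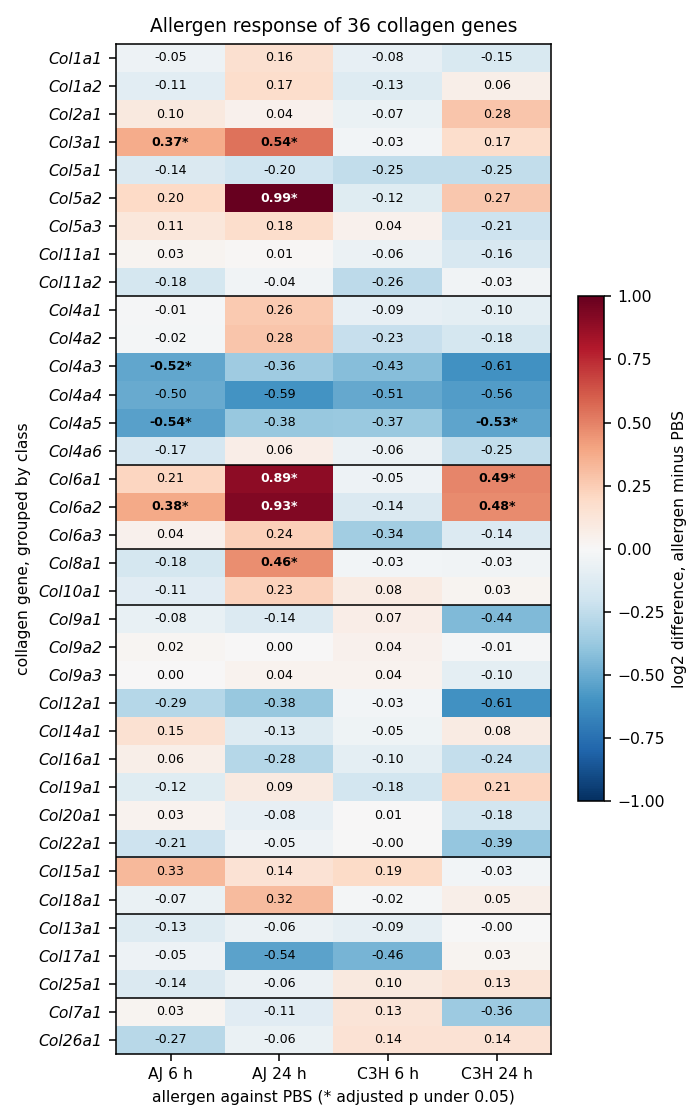
The grid gives the log2 difference between allergen and PBS lungs for all 36 collagen genes, grouped by class, in AJ and C3H at 6 h and 24 h, with an asterisk where the gene passed. AJ has 4 marked cells at 6 h and 5 at 24 h, the latter led by Col5a2 at 0.99, C3H has 0 at 6 h and 3 at 24 h, and the type IV chains Col4a3, Col4a4 and Col4a5 are below 0 in each column.

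Promoters of 4 of the 5 genes that rose in AJ at 24 h are shown, and 2 of them, Col6a1 and Col6a2, are neighbours on chromosome 10. The genes were picked for that rise, so rising together there is not a separate result. In C3H at 24 h Col6a1 and Col6a2 passed, while Col3a1, Col5a2 and Col8a1 did not. The sequences are the 250 bases before the annotated start, read 5′ to 3′ on the gene's strand, from RefSeq on mouse build GRCm38.p6. Capitals mark matches, on either strand, to the letters TATAAA of the TATA box, GGGCGG of the GC box, TGANTCA of the AP-1 site, or those that name the CCAAT box. Col3a1 is at chr1:45311288-45311537 on the plus strand, Col6a1 at chr10:76726045-76726294, Col6a2 at chr10:76623631-76623880 and Col8a1 at chr16:57754738-57754987, these last 3 on the minus strand.
Col3a1: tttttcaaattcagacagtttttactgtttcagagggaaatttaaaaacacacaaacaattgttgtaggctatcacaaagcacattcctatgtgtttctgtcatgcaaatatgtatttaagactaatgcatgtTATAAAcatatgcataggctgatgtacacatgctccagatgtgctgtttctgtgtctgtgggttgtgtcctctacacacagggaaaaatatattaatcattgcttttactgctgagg
Col6a1: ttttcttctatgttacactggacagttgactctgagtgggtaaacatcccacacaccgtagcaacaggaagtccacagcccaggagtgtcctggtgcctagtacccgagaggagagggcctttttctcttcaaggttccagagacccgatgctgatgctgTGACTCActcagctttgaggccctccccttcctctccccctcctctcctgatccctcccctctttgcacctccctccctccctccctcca
Col6a2: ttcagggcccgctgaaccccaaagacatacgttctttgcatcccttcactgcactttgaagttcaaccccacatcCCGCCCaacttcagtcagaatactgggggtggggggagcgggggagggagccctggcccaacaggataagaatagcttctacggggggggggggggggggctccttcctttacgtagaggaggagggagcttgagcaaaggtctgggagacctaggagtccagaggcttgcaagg
Col8a1: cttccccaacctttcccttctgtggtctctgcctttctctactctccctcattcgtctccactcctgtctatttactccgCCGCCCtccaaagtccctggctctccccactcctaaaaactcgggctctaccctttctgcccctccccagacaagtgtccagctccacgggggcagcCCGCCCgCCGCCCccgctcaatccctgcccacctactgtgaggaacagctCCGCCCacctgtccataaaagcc
A TATA box stood 117 bases before the Col3a1 start, an AP-1 site 90 bases before the Col6a1 start, and a GC box 175 bases before the Col6a2 start. RefSeq gave a second Col6a2 start, whose window is not printed and held 3 GC boxes, at 67, 15 and 11 bases before it. The Col8a1 window held 4 GC boxes, at 170, 73, 66 and 23 bases before the start. The 4 windows printed share no one motif among those searched. RefSeq promoters were matched for 27 of the 36 collagens, in 30 windows, and Col5a2, the fifth gene, was not among them. A GC box was found in 53.3% of the members' windows and in 32.7% of 32851 promoters of the same length, and a CCAAT box in 40.0% and 33.9%. The members' windows were also richer in G and C, with a median of 58.4% against 52.4%. The part of base content in the GC box share was not tested. TATA boxes were in 16.7% and 12.4%, and AP-1 sites in 3.33% (the Col6a1 window) and 6.75%. The STAT6 site, TTC and GAA with any 4 bases between, was in 0 of the 30 windows and 5.85% of all, and the SMAD-binding element GTCTAGAC in 0 and 0.167%. A match is a description of the letters and not evidence of binding.

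Among the fibrillar collagens, Col5a2 showed the largest difference of any member. Col5a2 encodes the alpha 2 chain of type V collagen, which sits inside type I and III fibrils and limits their width. In AJ PBS lungs at 24 h its level on the 5 arrays was 8.57, 8.50, 8.81, 8.16 and 8.24. In AJ allergen lungs at 24 h it was 9.71, 9.46, 9.28, 9.37 and 9.42. Each allergen array was above each PBS array, and the means were 8.46 ± 0.26 and 9.45 ± 0.16 (SD, n = 5). Col5a2 rose by 0.99 ± 0.12 (SE; 1.99-fold; adjusted p = 9.53e-08). At 6 h in AJ the difference was 0.20 and did not pass (adjusted p = 0.287), and the response was larger at 24 h than at 6 h by 0.80 ± 0.17 (adjusted p = 0.00208). A dimmer Col5a2 probe set rose by 0.65 in AJ at 24 h (adjusted p = 0.0298 over 20380 probe sets), but with the mean over both probe sets the time difference was 0.56 and did not pass (adjusted p = 0.0703).

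In C3H lungs the Col5a2 response was smaller. At 24 h the C3H PBS arrays read 9.07, 9.13, 9.31, 8.91 and 9.05, and the C3H allergen arrays 9.41, 9.10, 9.40, 9.57 and 9.35. These groups overlapped, and the difference of 0.27 ± 0.12 did not pass (adjusted p = 0.212). The C3H response was 0.72 ± 0.17 below the AJ response (adjusted p = 0.0366), and Col5a2 was the one member of 36 (2.78%, against 0.46% of all genes) whose response differed between strains at 24 h. That call was lost in 12 of the 20 fits that left out 1 array, with adjusted p up to 0.0833. It was also lost with median centring, with only the groups of the comparison and with the mean over both probe sets, with adjusted p up to 0.133. The libraries whose loss ended it were AJ allergen replicates 1, 2 and 5, AJ PBS replicates 4 and 5, C3H allergen replicates 1, 2, 3 and 5, and C3H PBS replicates 1, 3 and 5. For the strain difference at 6 h, 2 members had an unadjusted p under 0.05. The limma fit called 0 of 36 there, against 2.15% of all genes called. Without AJ PBS 6 h replicate 3 it called 1.

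Col3a1, which encodes the chain of type III collagen, the fine fibril of vessel walls and lung septa, lies next to Col5a2 on chromosome 1 with no annotated protein-coding gene between them. In AJ PBS lungs at 24 h Col3a1 read 10.75, 10.89, 10.98, 10.44 and 10.46, and in AJ allergen lungs 11.41, 11.35, 11.23, 11.18 and 11.04. The groups did not overlap, and Col3a1 rose by 0.54 ± 0.11 (adjusted p = 0.00144). At 6 h the AJ PBS arrays read 10.41, 10.46, 11.13, 10.53 and 10.50, and the allergen arrays 11.05, 10.91, 11.06, 11.05 and 10.80. Replicate 3 of the PBS group alone was above the allergen arrays, and the rise was 0.37 ± 0.11 (adjusted p = 0.0193). Leaving out AJ PBS 6 h replicate 1, 2 or 5 ended that call, with adjusted p of 0.0649, 0.0585 and 0.0509. Fitting only the groups of the comparison ended it too (adjusted p = 0.0982). A dimmer Col3a1 probe set rose by 0.73 at 6 h and by 0.97 at 24 h in AJ. In C3H the Col3a1 differences were -0.03 at 6 h and 0.17 at 24 h, and neither passed. The strain difference of the response was -0.39 at 6 h (95% interval -0.72 to -0.07) and -0.36 at 24 h (-0.69 to -0.04), and neither passed after adjustment (adjusted p = 0.239 and 0.340).

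**Figure D2:**
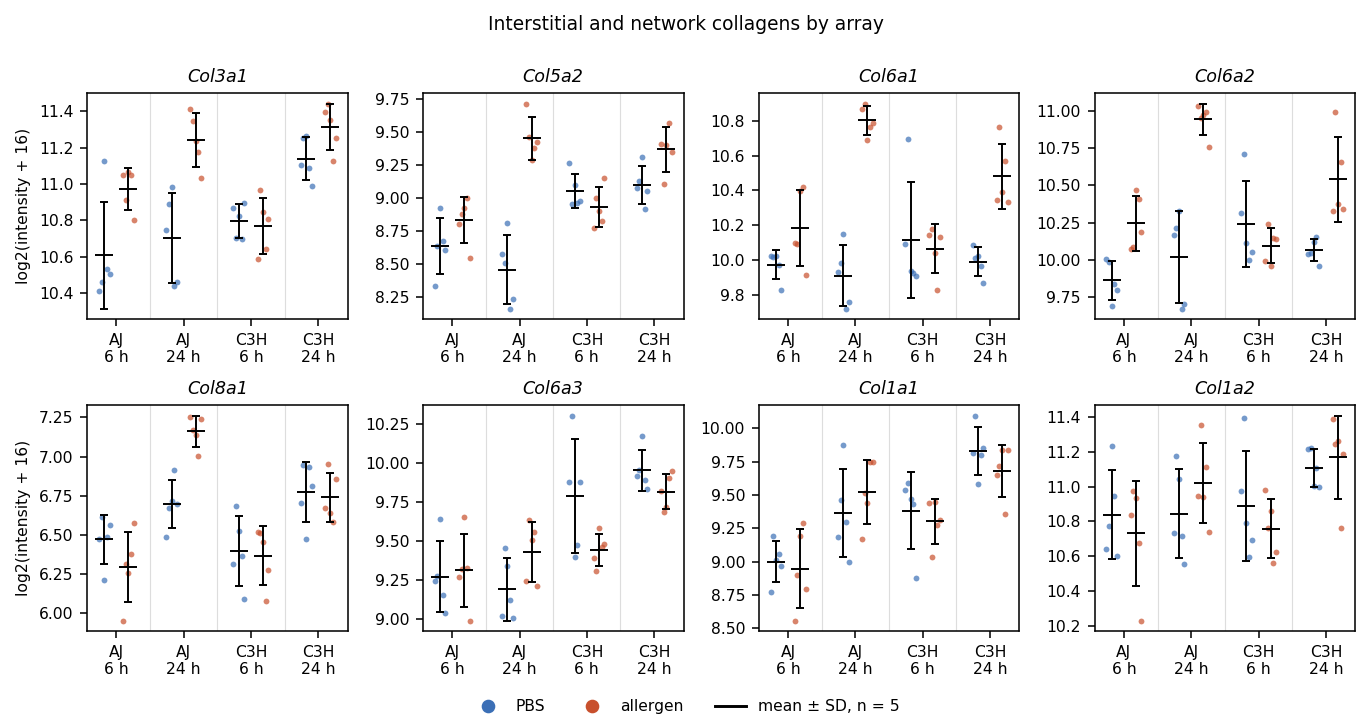
Each point is 1 array, given as log2(intensity + 16), for 8 interstitial collagens in the 8 groups, with bars at each group's mean and SD. The AJ allergen arrays at 24 h lie above all AJ PBS arrays at 24 h for Col3a1, Col5a2, Col6a1, Col6a2 and Col8a1, and the brightest probe sets of Col1a1 and Col1a2 overlap.

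Type I collagen, the main load-bearing fibril of the lung, is wound from Col1a1 and Col1a2 chains, and its result turned on the probe set. On its brightest probe set Col1a1 read 9.18, 9.47, 9.87, 9.30 and 8.999 in AJ PBS lungs at 24 h and 9.17, 9.52, 9.44, 9.75 and 9.75 in AJ allergen lungs. The groups overlapped and the difference was 0.16 (95% interval -0.14 to 0.47). On its dimmer probe set Col1a1 read 7.52, 7.62, 8.77, 7.60 and 7.18 in PBS and 9.53, 8.93, 8.24, 8.40 and 9.09 in allergen lungs, and rose by 1.10 ± 0.26 (adjusted p = 0.00461 over 20380 probe sets), with replicate 3 of the PBS group inside the allergen range. On the brightest probe set Col1a2 read 10.74, 11.17, 11.04, 10.72 and 10.55 in PBS and 10.94, 11.36, 10.94, 11.11 and 10.74 in allergen lungs. These also overlapped, with a difference of 0.17 (95% interval -0.13 to 0.48). On the dimmer probe set Col1a2 read 8.31, 8.54, 8.68, 7.94 and 8.03 in PBS and 8.97, 9.41, 9.07, 9.24 and 9.003 in allergen lungs. Here each allergen array was above each PBS array, and the rise was 0.84 ± 0.16 (adjusted p = 0.000673). The dimmer probe sets were picked out after their values were seen, and which transcript ends the probe sets read was not tested. At 6 h in AJ, and at both times in C3H, neither probe set of either gene passed. On the brightest probe sets those differences ran from -0.15 to 0.06, and on the dimmer ones from -0.23 to 0.35.

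The remaining fibrillar chains did not pass in any comparison of allergen with PBS. Col5a1, the alpha 1 chain of type V collagen and partner of Col5a2, gave -0.14 and -0.20 in AJ at 6 h and 24 h, and -0.25 at both times in C3H. Col2a1, the cartilage fibril chain, gave 0.10, 0.04, -0.07 and 0.28 in the same order, and its intensity was under 16 on 92.5% of the arrays. Intensities under 16 on at least 50% of arrays were also found for Col9a2, Col9a3, Col10a1, Col22a1 and Col26a1. For these 6 genes the scale understates any change. Of 9 cartilage markers measured, 0 passed in the limma fit in any of the 4 comparisons, and 1 had an unadjusted p under 0.05 in at least 1.

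Type VI collagen rose at 24 h in both strains, in Col6a1 and Col6a2. Its core trimer is wound from Col6a1, Col6a2 and Col6a3 chains, and Col6a1 and Col6a2 are neighbours with no annotated protein-coding gene between them. In AJ PBS lungs at 24 h Col6a1 read 9.93, 9.98, 10.15, 9.72 and 9.76, against 10.87, 10.90, 10.69, 10.77 and 10.79 with allergen. The ranges were far apart, and Col6a1 rose by 0.89 ± 0.12 (1.86-fold; adjusted p = 1.02e-06). In C3H at 24 h Col6a1 read 10.09, 10.01, 10.02, 9.97 and 9.87 in PBS and 10.34, 10.77, 10.39, 10.57 and 10.33 in allergen lungs. Again the groups did not overlap, and the rise was 0.49 ± 0.12 (1.41-fold; adjusted p = 0.0155). Without C3H allergen 24 h replicate 2, the highest array, the C3H rise was 0.42 and did not pass (adjusted p = 0.069).

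Col6a2, the alpha 2 chain of type VI collagen, rose in AJ at both times and in C3H at 24 h. In AJ at 24 h it read 10.17, 10.22, 10.33, 9.67 and 9.70 in PBS and 11.03, 10.95, 10.98, 10.99 and 10.76 in allergen lungs, a rise of 0.93 ± 0.13 (1.90-fold; adjusted p = 4.13e-06). In C3H at 24 h it read 10.04, 10.05, 10.12, 10.15 and 9.96 in PBS and 10.33, 10.995, 10.37, 10.66 and 10.34 in allergen lungs, a rise of 0.48 ± 0.13 (adjusted p = 0.0363). At both, each allergen array was above each PBS array. In AJ at 6 h Col6a2 read 10.004, 9.99, 9.69, 9.84 and 9.80 in PBS and 10.07, 10.09, 10.47, 10.41 and 10.19 in allergen lungs. These did not overlap, and the rise was 0.38 ± 0.13 (adjusted p = 0.0369). In C3H at 6 h it was -0.14 and did not pass. The AJ call at 6 h ended without AJ allergen replicate 3 or 4 or AJ PBS replicate 3, 4 or 5 (adjusted p from 0.0649 to 0.113). Quantile normalization and the mean over both probe sets ended it too. The C3H call at 24 h ended without C3H allergen replicate 2 or 4 or any of the 5 C3H PBS arrays (adjusted p from 0.055 to 0.158). That call was also lost with quantile normalization and with only the groups of the comparison. A dimmer Col6a2 probe set gave 0.94 in AJ at 24 h (adjusted p = 1.77e-05), and 0.42 in C3H at 24 h and 0.23 in AJ at 6 h, neither of which passed.

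The remaining type VI chain did not pass in any comparison of allergen with PBS. Col6a3, the long chain that completes the type VI trimer, read 9.02, 9.46, 9.34, 9.12 and 9.01 in AJ PBS lungs at 24 h and 9.24, 9.63, 9.50, 9.56 and 9.21 in AJ allergen lungs. The groups overlapped, and the difference of 0.24 did not pass (95% interval -0.03 to 0.51). In C3H it was -0.34 at 6 h and -0.14 at 24 h, and neither passed. The Col6a1 response in AJ was larger at 24 h than at 6 h by 0.68 ± 0.17 (adjusted p = 0.00941), while the same differences were 0.54 for Col6a2 (adjusted p = 0.084) and 0.20 for Col6a3 (adjusted p = 0.667). With the Col5a2 value above and the Col8a1 value below, 3 members of 36 (8.33%) had a response that grew with time in AJ, against 5.62% of all genes called in either direction and 3.53% in that direction. In C3H the limma fit called 0 of 36 time differences, against 0.88% of all genes called, and 6 members had an unadjusted p under 0.05. The C3H values were 0.54 for Col6a1 and 0.62 for Col6a2 (adjusted p = 0.117 and 0.105). At 24 h the C3H response was lower than the AJ response by 0.40 for Col6a1 (95% interval 0.06 to 0.74) and by 0.45 for Col6a2 (0.07 to 0.83), and neither difference passed (adjusted p = 0.300 and 0.301).

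Col8a1 encodes a chain of type VIII collagen, a short-chain network made by vascular smooth muscle and endothelium. In AJ PBS lungs at 24 h it read 6.49, 6.67, 6.71, 6.92 and 6.69, and in AJ allergen lungs 7.25, 7.17, 7.14, 7.003 and 7.24. The groups did not overlap and Col8a1 rose by 0.46 ± 0.12 (adjusted p = 0.00796). At 6 h its difference was -0.18 and did not pass, so the response at 24 h exceeded that at 6 h by 0.64 ± 0.17 (adjusted p = 0.0139). In C3H it was -0.03 at both times. Both AJ calls rested on the brighter probe set: the dimmer one, at a mean level of 4.40, gave 0.03 at 24 h in AJ. With the mean over both probe sets the rise was 0.25 (adjusted p = 0.0769).

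In the basement membrane the 6 type IV chains fell into different patterns. Col4a1 and Col4a2, neighbours on chromosome 8 that make the type IV trimer of most basement membranes, did not pass in any comparison of allergen with PBS. At 24 h in AJ, Col4a1 differed by 0.26 and Col4a2 by 0.28 (adjusted p = 0.105 and 0.264), and the other 3 comparisons ran from -0.10 to -0.01 for Col4a1 and from -0.23 to -0.02 for Col4a2. Col4a3, Col4a4 and Col4a5, whose chains make the trimer of alveolar and glomerular basement membrane, had lower means with allergen in both strains at both times. Across the family 8 of 36 members were below 0 in all 4 comparisons and 0 were above 0 in all 4. The same shares over all genes are not given here, so this is a description of the members only.

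Col4a5 passed in each strain at 1 of the times. In AJ PBS lungs at 6 h it read 8.23, 8.51, 8.27, 8.33 and 8.27, and in allergen lungs 7.99, 7.59, 7.80, 7.77 and 7.76. The groups did not overlap, and Col4a5 fell by 0.54 on the log2 scale, with an SE of 0.15 (adjusted p = 0.00713). At 24 h in AJ the PBS arrays read 7.96, 7.64, 7.80, 8.12 and 7.72 and the allergen arrays 7.43, 7.61, 7.503, 7.38 and 7.44. These did not overlap either, but the difference of -0.38 did not pass (adjusted p = 0.124). A dimmer Col4a5 probe set fell by 0.66 in AJ at 24 h (adjusted p = 0.00292) and gave -0.24 at 6 h, which did not pass. In C3H at 24 h Col4a5 read 8.45, 8.42, 8.84, 8.40 and 8.26 in PBS and 7.66, 7.27, 8.04, 8.11 and 8.63 in allergen lungs, overlapping through allergen replicate 5. The fall there was -0.53 ± 0.15 (adjusted p = 0.0371). It ended without C3H allergen replicate 1, 2 or 3 or C3H PBS replicate 1, 2, 3 or 4 (adjusted p from 0.0506 to 0.171). It was also lost with median centring and with only the groups of the comparison (adjusted p up to 0.233). In C3H at 6 h the groups did not overlap and the difference of -0.37 did not pass (adjusted p = 0.131).

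Col4a3 read 8.81, 8.84, 8.48, 8.54 and 8.59 in AJ PBS lungs at 6 h and 8.36, 8.01, 8.31, 7.76 and 8.21 in allergen lungs. The groups did not overlap and Col4a3 fell by 0.52 on the log2 scale, with an SE of 0.18 (adjusted p = 0.038). This call ended without AJ allergen replicate 2 or 4 or AJ PBS replicate 1, 2 or 5 (adjusted p from 0.0532 to 0.128). Median centring (adjusted p = 0.069) and quantile normalization ended it too. Its other differences were -0.36 in AJ at 24 h, -0.43 in C3H at 6 h and -0.61 in C3H at 24 h, where the groups did not overlap but the test missed (adjusted p = 0.056). Col4a4, next to Col4a3 on chromosome 1, gave -0.50, -0.59, -0.51 and -0.56 in AJ at 6 h and 24 h and C3H at 6 h and 24 h. None of these passed (adjusted p from 0.0961 to 0.169). For AJ at 24 h the Col4a4 arrays read 6.74, 6.86, 6.83, 6.83 and 6.97 in PBS and 6.32, 6.20, 5.86, 6.58 and 6.29 with allergen, without overlap. The mean of 10 alveolar epithelial markers was 11.10 in PBS and 10.76 with allergen in AJ at 6 h. The same markers gave 11.15 and 10.91 in AJ at 24 h, and 11.10 and 10.76 in C3H at 6 h. In C3H at 24 h their mean was 11.07 ± 0.12 in PBS and 11.01 ± 0.16 with allergen (SD, n = 5). Single markers went both ways there: Sftpa1 was at 12.21 in PBS and 12.65 with allergen, and Aqp5 at 10.22 and 9.94. Their part in the type IV values was not tested.

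**Figure D3:**
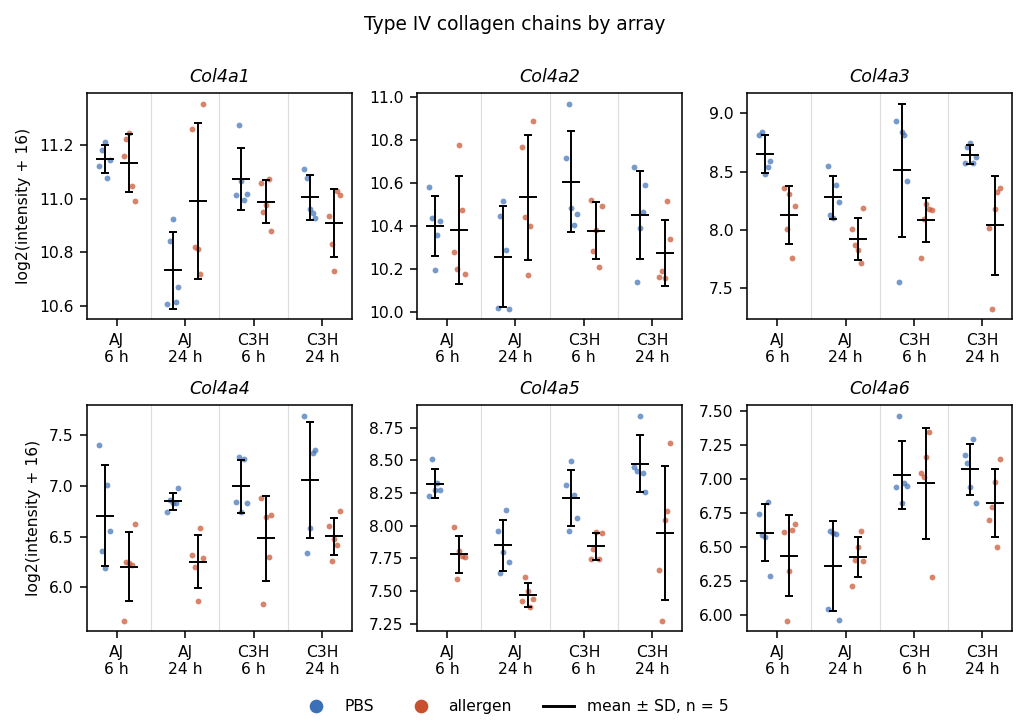
Each point is 1 array, given as log2(intensity + 16), for the 6 type IV collagen genes in the 8 groups, with bars at each group's mean and SD. For Col4a5 at 6 h in AJ the allergen arrays lie between 7.59 and 7.99 and the PBS arrays between 8.23 and 8.51, and for Col4a1 and Col4a2 allergen and PBS arrays overlap.

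Groups of 5 that do not overlap give a second count that does not rest on the fit. At 24 h in AJ, allergen and PBS arrays were apart for 5 collagens that were higher and for 2 that were lower (Col4a4 and Col4a5), where 8.67% of all genes were apart in either direction. In AJ at 6 h they were apart for Col6a2, Col4a3 and Col4a5, against 13.5% of all genes, and in C3H at 24 h for Col6a1, Col6a2 and Col4a3, against 4.6%. In C3H at 6 h they were apart for Col4a5, against 5.7%.

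The multiplexins, fibril-associated, transmembrane and other collagens gave no call with allergen in the limma fit. At an unadjusted p under 0.05 were Col15a1 in AJ at 6 h, Col17a1 in AJ at 24 h, and Col7a1, Col9a1 and Col12a1 in C3H at 24 h (-0.36, -0.44 and -0.61). Of the multiplexins, which sit in basement membrane zones, Col15a1 gave 0.33, 0.14, 0.19 and -0.03 in AJ at 6 h and 24 h and C3H at 6 h and 24 h. Col18a1, whose end fragment is endostatin, gave -0.07, 0.32, -0.02 and 0.05. The 9 fibril-associated collagens, which decorate fibrils, ranged in AJ from -0.29 (Col12a1 at 6 h) to 0.15 (Col14a1 at 6 h), except Col12a1 at 24 h at -0.38. Transmembrane Col17a1, a hemidesmosome collagen of basal epithelium, gave -0.54 in AJ at 24 h and did not pass.

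Strain differences were also present without allergen, in comparisons that share their PBS arrays with the responses above. The AJ PBS group at 24 h had the lowest mean of the 8 groups for Col5a2, Col6a1, Col6a3 and Col4a6. The lowest group was AJ PBS at 6 h for Col3a1 and AJ allergen at 24 h for Col4a5. The AJ rises at 24 h, the Col5a2 strain difference of response and the values below are therefore not separate observations. In PBS lungs at 24 h, 5 collagens were higher in C3H than in AJ, a share of 13.9% against 1.09% of all genes called higher and 1.93% called in either direction. At 6 h 2 were higher, a share of 5.56% against 4.45% called in either direction and 2.36% called higher. The strains' arrays were apart at 24 h for 7 collagens, all higher in C3H, where 4.27% of all genes were apart, and at 6 h for Col5a2, where 4.37% were. All 7 members with an unadjusted p under 0.05 at each time were higher in C3H. Col6a3 showed the largest of the differences that passed: it read 9.91, 9.96, 10.17, 9.89 and 9.83 in C3H PBS lungs at 24 h, above each of the AJ PBS arrays given earlier, and Col6a3 was higher by 0.77 ± 0.14 (adjusted p = 0.000399). At 6 h it was higher by 0.52 ± 0.14 (adjusted p = 0.0202), a call lost without AJ PBS replicate 5 or C3H PBS replicate 2 (adjusted p = 0.0621 and 0.1). That call was also lost with array weights and with only the groups of the comparison (adjusted p up to 0.211).

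Col5a2 was higher in C3H PBS lungs by 0.64 ± 0.12 at 24 h (adjusted p = 0.000694), without overlap, and by 0.42 ± 0.12 at 6 h (adjusted p = 0.0317). The call at 6 h ended without AJ PBS replicate 1, 2 or 5 or C3H PBS replicate 1 or 3 (adjusted p up to 0.099). It was also lost with median centring, the mean over both probe sets and only the groups of the comparison (adjusted p up to 0.139). Col3a1 was higher by 0.44 ± 0.11 at 24 h (adjusted p = 0.0315), also without overlap, and its dimmer probe set by 0.73 (adjusted p = 0.003). That of Col1a2 was higher by 0.73 as well (adjusted p = 0.00686), while its brightest probe set gave 0.26 and did not pass. The Col3a1 call on the brightest probe set ended without AJ PBS replicate 1, 4 or 5 or C3H PBS replicate 1, 2, 3 or 4 (adjusted p up to 0.121). Median centring and fitting only the groups of the comparison ended it too.

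On the X chromosome the neighbours Col4a5 and Col4a6, an alpha 6 chain found in smooth muscle basement membrane, were higher in C3H at 24 h. Col4a5 was higher by 0.62 ± 0.15 (adjusted p = 0.0127) and Col4a6 by 0.71 ± 0.17 (adjusted p = 0.0134). Col4a6 read 7.18, 7.12, 6.94, 7.30 and 6.82 in C3H PBS lungs at 24 h and 6.04, 6.61, 6.60, 6.59 and 5.96 in AJ PBS lungs, without overlap. Its dimmer probe set separated the strains more widely, at 6.10 ± 0.20 in C3H and 4.44 ± 0.12 in AJ at 24 h (SD, n = 5), a difference of 1.66 ± 0.16 (adjusted p = 8.86e-10). At 6 h that probe set differed by 1.51 (adjusted p = 1.06e-08), while the brighter one did not pass. The AJ value is near the floor of 4 that log2(16) sets, so 1.66 understates the ratio. The Col4a5 call ended without AJ PBS replicate 2 or C3H PBS replicate 3 (adjusted p = 0.0532 and 0.0654), and the Col4a6 call without AJ PBS replicate 1 or 5 or C3H PBS replicate 4 (adjusted p up to 0.0666). The dimmer Col4a5 probe set gave 0.34 at 24 h and -0.15 at 6 h, and neither passed. Leaving out AJ PBS 24 h replicate 1 or 5 or C3H PBS 24 h replicate 3 or 4 took the count of members from 5 to 3, and leaving out AJ PBS 6 h replicate 5 took the count at 6 h from 2 to 0. That count became 1 without AJ PBS 6 h replicate 1 or 2 or C3H PBS 6 h replicate 1, 2 or 3.

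**Figure D4:**
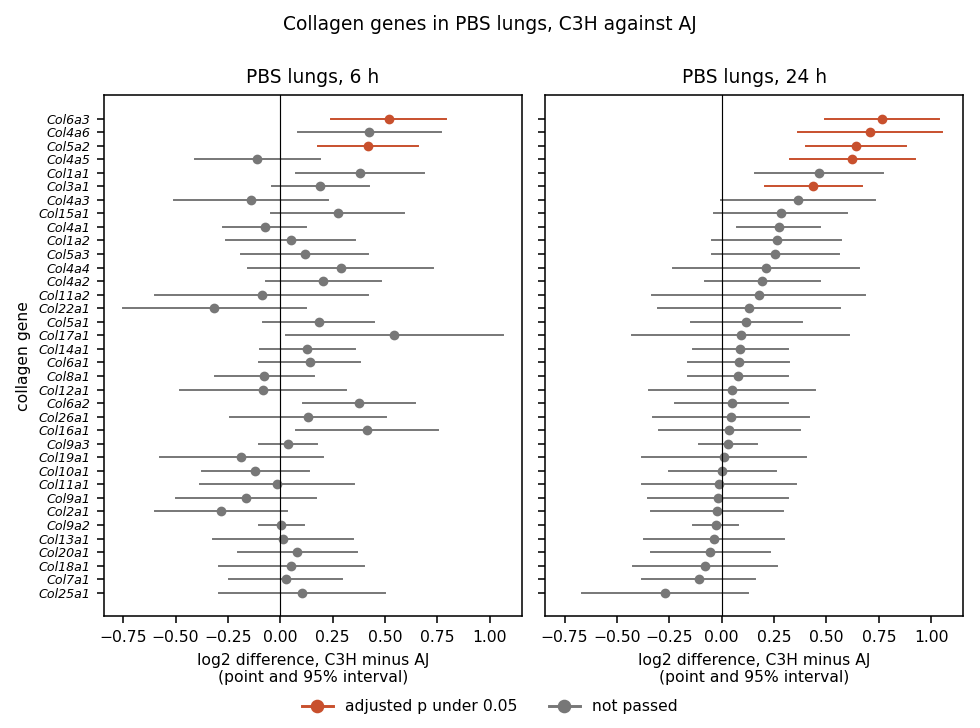
Points give the log2 difference between C3H and AJ in PBS lungs at 6 h and 24 h for each collagen gene, with 95% intervals. The members that passed are all to the right of 0, from Col5a2 at 0.42 and Col6a3 at 0.52 at 6 h to Col6a3 at 0.77 at 24 h.

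The strains were next compared in allergen lungs, a comparison added after the values were seen. At 24 h Col5a2 was at 9.45 ± 0.16 in AJ and 9.37 ± 0.17 in C3H (SD, n = 5), a difference of -0.08 (95% interval -0.32 to 0.15). Col3a1 was at 11.24 in AJ and 11.31 in C3H, a difference of 0.07 (-0.16 to 0.31). For both genes AJ was the lower strain in PBS lungs, and the intervals in allergen lungs include 0. Of 36 members, Col4a5 was higher in C3H (0.48 ± 0.15, adjusted p = 0.0421) and Col8a1 lower (-0.42 ± 0.12, adjusted p = 0.0208), where 7.13% of all genes were called. At 6 h Col4a6 was higher in C3H by 0.53 ± 0.17 (adjusted p = 0.0379), where 9.31% were called. This comparison shares its allergen arrays with the responses above.

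Between 6 h and 24 h after PBS aspiration 1 collagen differed. The series holds no lungs without aspiration, so time since aspiration and other differences between the times cannot be told apart. The AJ PBS arrays are those used above, and AJ PBS at 24 h had the lowest Col4a1 mean of the 8 groups. In AJ, Col4a1 read 11.12, 11.18, 11.21, 11.08 and 11.14 at 6 h and 10.61, 10.84, 10.92, 10.62 and 10.67 at 24 h, a fall of -0.42 ± 0.10 without overlap (adjusted p = 0.00854). It was 1 of 36 members (2.78%), against 5.37% of all genes called, and a further member passed without AJ PBS 24 h replicate 4 or AJ PBS 6 h replicate 4 or 5, making 2. The dimmer Col4a1 probe set gave -0.09 and did not pass, and with the mean over both probe sets the call was lost (adjusted p = 0.156). In C3H PBS lungs 3 members had an unadjusted p under 0.05. The limma fit called 0 of 36 there, against 3.21% of all genes called. The count became 1 without C3H PBS 24 h replicate 3 and 1 without C3H PBS 6 h replicate 2.

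Chains of the same collagen type, or of types that share fibrils, were also compared within groups, as deviations of each array from its group mean over the 40 arrays. Col6a1 and Col6a2 varied together most closely of 11 pairs computed (Pearson r = 0.79, Spearman rho = 0.73, permutation test with 100000 resamples, both adjusted p = 0.00011, where the raw p of 1e-05 is the smallest such a test can give). Without the 2 arrays farthest from the median of Col6a1, r was 0.70. Col3a1 and Col5a2 gave r = 0.65 and rho = 0.60 (adjusted permutation p = 0.00148 and 0.00258), and 0.57 without the 2 farthest arrays. Col4a1 and Col4a2 gave r = 0.60 and rho = 0.54 (adjusted permutation p = 0.00404 and 0.00938), and 0.51 without those arrays. Col1a2 and Col3a1 gave r = 0.53, Col6a1 and Col6a3 gave 0.54, and Col1a1 and Col1a2 gave 0.43, with adjusted permutation p of 0.00404, 0.0128 and 0.0392. For Col6a1 and Col6a3 rho was 0.38 and did not pass (adjusted permutation p = 0.0573). The other 5 pairs did not pass, among them Col4a3 with Col4a4 (r = -0.12) and Col5a1 with Col5a2 (r = 0.11). Pairs of genes that are not partners were not computed, so these values are not read as particular to partner chains. C3H PBS 6 h replicate 2 was the highest array of its group for Col1a1, Col1a2, Col4a1, Col4a2, Col6a1, Col6a2 and Col6a3. It was not the highest for Col3a1 or Col5a2. Arrays of 1 group share their strain, treatment and time but may differ in dissection and in array brightness. The part of dissection was not tested. The correlations were computed again after median centring of each array, and those values are not given here.

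**Figure D5:**
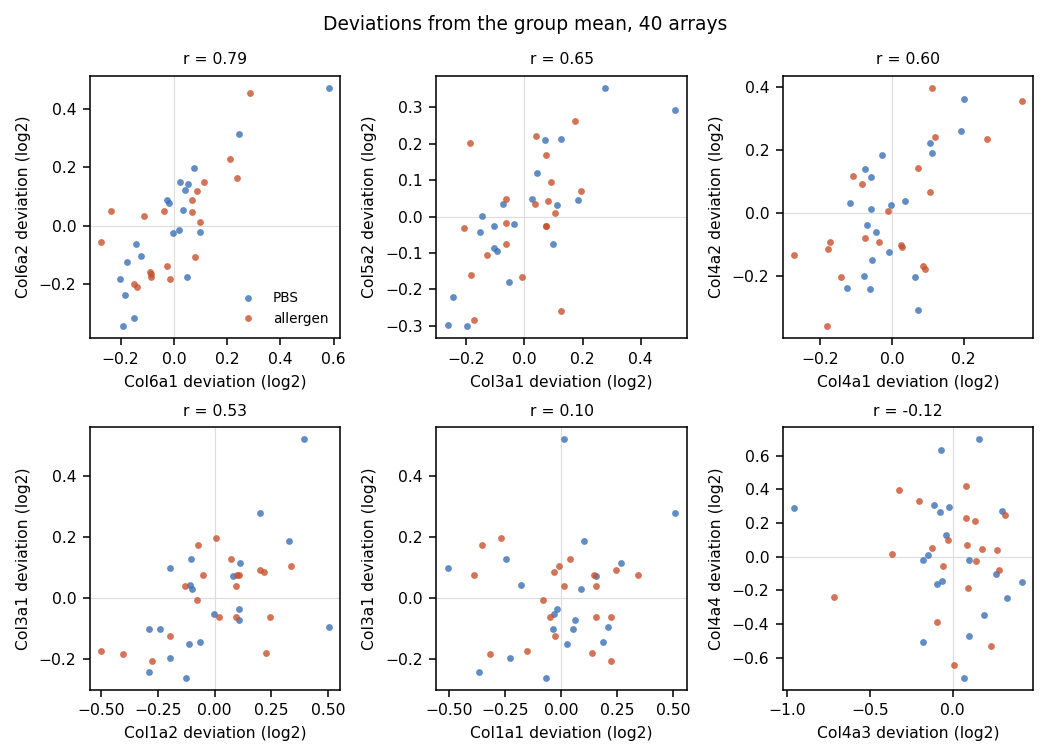
Each panel plots, for 1 pair of collagen genes, the deviation of each of the 40 arrays from its group mean in log2(intensity + 16), 1 gene on each axis. The Col6a1 and Col6a2 points lie closest to a line (r = 0.79), and the Col4a3 and Col4a4 points show no slope upward (r = -0.12).

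Genes that make and mature collagen were read from lists chosen by function. Of 17 genes of synthesis, folding and secretion, 5 fell and 12 did not pass in AJ at 6 h, a share of 29.4% where 19% of all genes were called. The falls were led by Plod2, a lysyl hydroxylase (-0.71 ± 0.17, adjusted p = 0.0026), P4ha1, a prolyl hydroxylase subunit (-0.59 ± 0.11, adjusted p = 0.000156), and Slc39a13, a zinc transporter (-0.47 ± 0.12, adjusted p = 0.00321). In AJ at 24 h P3h3, a prolyl hydroxylase family member, fell by 0.36 on the log2 scale (adjusted p = 0.0224). In C3H at 6 h P4ha2 (-0.62) and P4ha1 (-0.42) fell and Creb3l1 (0.56), a transcription factor of secretory genes, rose, and at 24 h Plod2 fell by 0.80 on the log2 scale. Of 10 processing and crosslinking genes, Lox, the lysyl oxidase that crosslinks fibrils, fell in AJ at 6 h (-0.77 ± 0.25, adjusted p = 0.0241) and rose at 24 h (0.86 ± 0.25, adjusted p = 0.0247). The Lox means were 9.29 and 9.08 in AJ allergen lungs at 6 h and 24 h, and 10.06 and 8.23 in AJ PBS lungs, a Lox difference between times of -1.83 ± 0.25 in PBS (adjusted p = 6.43e-06). Pcolce2, a procollagen proteinase enhancer, fell in AJ at 24 h (-0.96) and in C3H at 6 h (-0.51), where Tgm2, a crosslinking transglutaminase, rose (0.43).

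Of 18 breakdown and uptake genes, 7 rose and 1 fell in AJ at 6 h (44.4%, against 19% of all genes called in either direction) and 6 rose in AJ at 24 h (33.3% against 7.84%). In C3H 4 rose at 6 h (22.2% against 7.62%) and 4 at 24 h (22.2% against 3.24%), and the other 14 did not pass at either time. The median difference over the 18 was 0.19 and 0.30 in AJ and 0.05 at both times in C3H, against -0.07, 0.00, 0.00 and -0.04 over all genes. The largest at 6 h in AJ were Mmp8, the neutrophil collagenase (2.08 ± 0.30), Mmp12, macrophage elastase (2.06 ± 0.29), and Mmp13, collagenase 3 (1.27 ± 0.20). At 24 h in AJ they were Mrc1, a macrophage receptor that takes up collagen (1.79 ± 0.17), Ctsk, the collagen-degrading cathepsin K (1.63 ± 0.20), and Mmp12 (0.99 ± 0.29). In C3H, Mmp8 (1.09), Mrc1 (0.94) and Mmp13 (0.64) led at 6 h, and Mmp12 (1.28), Ctsk (1.13) and Mrc1 (0.83) at 24 h. Of 5 inhibitors, Timp1 rose in all 4 comparisons, by 1.78 and 2.98 in AJ and by 1.43 and 1.55 in C3H at 6 h and 24 h. Reck, a membrane inhibitor, fell in all 4, by values from -0.79 to -0.46, and Timp2 fell in AJ at 24 h (-0.41). Macrophage markers rose beside these genes. Of the 7, 4 rose in AJ at 6 h, 7 in AJ at 24 h, 3 in C3H at 6 h and 5 in C3H at 24 h. The mean of 5 neutrophil markers in AJ was 7.03 with PBS and 9.27 with allergen at 6 h. At 24 h in AJ it was 6.60 and 8.03. In C3H the neutrophil mean was 7.51 and 8.52 at 6 h, but 6.99 and 7.03 at 24 h. The part of either marker list in the breakdown genes was not tested, and Mrc1 stands in the breakdown and macrophage lists.

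Proteins that bind collagen split in AJ at 24 h. Of 22, 36.4% passed where 7.84% of all genes did, and 2 rose, Thbs1 (1.28 ± 0.13) and Tnc (0.65 ± 0.20), a matricellular pair that appears in remodelling tissue. In the same comparison 6 fell, led by Fbln1 (-0.92 ± 0.21), Fmod (-0.90 ± 0.27) and Fbln5 (-0.80 ± 0.14), the first and last being fibulins of elastic fibres and Fmod a fibril-binding proteoglycan. At 6 h in AJ Thbs1 rose by 2.13 and Sparc, a collagen-binding matricellular protein, fell by 0.41 on the log2 scale, and in C3H Thbs1 rose by 0.89 at 6 h and 0.73 at 24 h. Of 5 collagen receptors measured, Lair1, an inhibitory receptor of leukocytes, rose in AJ at 24 h (0.69) and in C3H at 6 h (0.47). Of 21 genes of the TGF-beta pathway, 5 fell in at least 1 of the 4 comparisons and 16 did not pass in any. By comparison, 14.3% of the 21 passed in AJ at 6 h, where 19% of all genes did, 9.52% in AJ at 24 h (7.84% of all), 14.3% in C3H at 6 h (7.62%) and 4.76% in C3H at 24 h (3.24%). Those that fell were led by Ccn2, a TGF-beta target (-0.70 in AJ at 6 h, -0.57 in AJ at 24 h and -0.96 in C3H at 6 h), Ltbp4, a latent TGF-beta binding protein (-1.04 in AJ at 24 h), and Smad7, an inhibitory SMAD (-0.75 in AJ at 6 h). Bambi, a pseudoreceptor, fell in AJ at 6 h (-0.71) and in C3H at 6 h (-0.59) and 24 h (-0.51), and Tgfb3 fell in C3H at 6 h (-0.54).

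Cell type markers were read beside the rise of Col3a1, Col5a2, Col6a1, Col6a2 and Col8a1 in AJ at 24 h. In that comparison 7.84% of all genes were called in either direction and 4.56% were called higher. Of 15 fibroblast markers 1 rose there, Cd34 (0.43 ± 0.10), and 6 fell, led by Fbln1, Mfap5 (-0.86 ± 0.16) and Clec3b (-0.74 ± 0.23). Their mean ran from 8.58 to 8.82 on the allergen arrays and from 8.98 to 9.17 on the PBS arrays. Fbln1, Dcn and Lum stand in both the fibroblast and the collagen-binding lists, so the falls in these lists are not separate observations. Of 13 cardiac and skeletal muscle markers, 4 were lower with allergen in the same comparison, led by Tnni3 (-1.59), Myl7 (-1.42) and Myl4 (-1.36), and their mean ran from 7.32 to 8.26 with allergen and from 8.78 to 9.58 with PBS. Of 6 adipose markers Cidec was lower (-1.14), and of 4 mesothelial markers Upk3b (-1.11) and Krt19 (-0.98) were lower. All 7 macrophage markers rose, led by Cd163 (2.65 ± 0.20), with means of 7.16 to 7.31 with PBS and 8.43 to 8.70 with allergen. The part of any of these in the collagen values was not tested.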

How the data were processed

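Lung total RNA was measured on 1-colour oligonucleotide arrays, and the authors deposited 1 table of intensity values per probe set, already scaled so that the trimmed mean of each array was between 150.036 and 150.046. The software that made these values is not given in the sources used here. Of 22690 probe sets, 64 controls, 691 with several gene symbols and 1555 with none were left out, and the brightest of the remaining 20380 was kept for each of 12393 genes. Values were put on the scale log2(intensity + 16) with no further normalization. Group means were fitted over all 40 arrays with limma 3.58.1 (R 4.3.3), with two-sided contrasts, 32 residual degrees of freedom and Benjamini-Hochberg adjustment. The fit was tested on simulated data. Each member that passed a response or a difference between responses is named, with up to 6 of each sign in the other comparisons, 13 collagens of textbook interest in any case, and the 3 largest of each pathway or marker list. The members and lists were chosen with earlier results of these data known. Promoter windows of 250 bases came from RefSeq (GRCm38.p6). Col24a1, Col27a1, Col23a1 and Col28a1 were among 8 collagens not analysed here. Alternatives changed the normalization, pseudocount, filter, probe-set rule, prior, array weights, groups fitted and arrays.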

Additional observations from a re-analysis of the deposited data

Results flagged for a closer look

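For 9 of 136 group and gene combinations among the 17 named collagens, 1 array of 5 stood apart from the other 4 by more than Dixon's limit, and chance alone gives about 1 in 20. Col1a1 was low on C3H PBS 6 h replicate 5 (8.88), and Col3a1 was high on AJ PBS 6 h replicate 3 (11.13). On C3H PBS 6 h replicate 2, Col4a1 (11.28), Col4a6 (7.47) and Col6a1 (10.69) were all high. Col4a3 was low on C3H allergen 6 h replicate 1 (7.76), Col5a1 on AJ allergen 6 h replicate 2 (7.17), Col6a1 on AJ PBS 6 h replicate 5 (9.83) and Col6a2 on AJ allergen 24 h replicate 5 (10.76).

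In 4 cases the response to allergen differed between groups in a test of the difference itself. The Col5a2 response at 24 h was -0.72 in C3H relative to AJ. In AJ the responses at 24 h exceeded those at 6 h by 0.80 for Col5a2, 0.68 for Col6a1 and 0.64 for Col8a1.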

How the results depend on the processing

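Of 24 calls on single collagens, 8 were kept under every alternative run and 0 changed sign. Those kept were Col3a1, Col5a2, Col6a1 and Col6a2 in AJ at 24 h, Col4a5 in AJ at 6 h, the larger Col6a1 response at 24 h in AJ, and Col5a2 and Col6a3 between strains in PBS lungs at 24 h. The counts of members below are of 36. In AJ at 6 h the count of 4 became 2 with quantile normalization, and 1 to 4 with 1 array left out. In C3H at 24 h the count of 3 became 8 with array weights (2 higher, 6 lower), 1 with only the groups of the comparison, and 0 to 4 with 1 array left out, the 0 being without C3H allergen 24 h replicate 2. In C3H at 6 h the count of 0 became 1 with array weights and 0 to 1 with 1 array left out. In AJ at 24 h leaving out 1 array gave 5 to 6. The strain difference at 24 h went from 1 to 0 with median centring, with the mean over probe sets and with only the groups of the comparison, and to 2 with array weights. With 1 array left out it was 0 to 1, as was the strain difference at 6 h, while the time difference was 3 to 4 in AJ and 0 to 0 in C3H. Between strains in PBS lungs at 6 h the count of 2 became 1 with median centring, 1 with array weights, 0 with only the groups of the comparison and 0 to 3 with 1 array left out. At 24 h it was 3 to 6 with 1 array left out. The PBS time difference in AJ went from 1 to 2 with median centring, a pseudocount of 64, the dimmest 25% of genes left out, the trend and robust prior, array weights and only the groups of the comparison, and was 1 to 2 with 1 array left out. In C3H it went from 0 to 2 with array weights and 0 to 1 with 1 array left out. The cause of these shifts was not tested. Same-numbered arrays did not deviate together (140 correlations from -0.26 to 0.41, median 0.00, with 36 over 0.1), and 10 of 40 arrays correlated best with an array of their own number. With the replicate number as a block the counts were the same, except 4 in C3H at 24 h. The log2(intensity + 16) scale understates changes of collagens whose intensity is under 16.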

Other observations

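Other cell type markers gave these counts over the 4 comparisons of allergen with PBS, in the limma fit. Of all genes, 19% and 7.84% were called in AJ at 6 h and 24 h, and 7.62% and 3.24% in C3H. The share of all genes called in at least 1 of the 4 is not given here, so the counts are not set against it. Of 10 alveolar epithelial markers 6 fell in at least 1, among them Rtkn2 (-1.30 in AJ at 6 h and -0.71 in C3H at 6 h) and Aqp5 (-0.81, -0.99 and -0.90 in AJ at 6 h, AJ at 24 h and C3H at 6 h). Of 9 endothelial markers 5 fell and 1, Vwf, rose, by 0.54 at 24 h in each strain, and Ramp2 fell by values of -1.07 in AJ and -0.62 in C3H at 6 h. Of 5 neutrophil markers 4 rose, led by S100a8 at 3.97 ± 0.46 (SE) in AJ at 6 h, and of 3 general leukocyte markers Ptprc rose, by 1.11 in AJ at 24 h. Of 8 smooth muscle markers Lmod1 fell in AJ at 6 h (-1.08), and of 6 airway epithelial markers Scgb3a2 fell in AJ at 24 h (-0.42). Of 3 nerve and Schwann cell markers none passed, with 1 at an unadjusted p under 0.05. In PBS lungs at 24 h, 5 collagens were higher in C3H, and 1.09% of all genes were called higher. Of the 15 fibroblast markers 1 was higher in C3H there (Mfap5, 0.73 ± 0.16) and 14 did not pass, with 10 differences above 0 and 5 below. The mean of the 15 was 9.13 in C3H and 9.05 in AJ. At 6 h 3 of the 15 were higher, led by Mfap5 (0.99 ± 0.16), and 12 did not pass, where 2.36% of all genes were called higher. Ddr2, a receptor for fibrillar collagen, was higher in C3H by 0.88 ± 0.20 at 6 h and 1.004 ± 0.20 at 24 h.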
